A study of Mus musculus with 36 samples.

Results

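Mouse zinc finger genes whose symbols run from Zfp700 to Zfp999 were followed through 6 groups of early embryos. They were chosen by symbol alone, as Zfp followed by a 3-digit number that opens with 7, 8 or 9, so the rule uses the symbol alone. The count tables held 97 such genes, from Zfp703 to Zfp964, among 23845 gene symbols, beside 236 other numbered Zfp genes. The study, whose title names the activation of the LINE-1 retrotransposon after fertilisation, sequenced RNA from pools of 4 or 5 mouse embryos. By their treatment labels, 4 NI, 7 Ctrl and 6 KRAB libraries came from the 2C (2-cell) stage, and 6 NI, 6 Ctrl and 7 VP64 libraries from the 8C (8-cell) stage. The label KRAB is shared with a domain that represses transcription, and VP64 with a synthetic one that activates it. What the Ctrl and NI embryos received is not given in the sources used here, nor are the strain, the embryos' parents or any batch, and every group is a pool of whole embryos.

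C2H2 zinc finger proteins read DNA through tandem fingers, each a short fold held by a zinc ion, and the order of the fingers sets the sequence that is bound. Many mouse members of this family also carry a KRAB box at the amino end. The box recruits KAP1, the product of Trim28, which brings the histone methyltransferase SETDB1 and heterochromatin proteins to the bound site. KRAB zinc finger proteins are best known for silencing retrotransposons and for guarding DNA methylation at imprinted loci in the early embryo, and their genes lie in tandem clusters that grew by duplication.

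The protein features of the genes were counted from the GENCODE vM21 coding sequences (GRCm38, the assembly also named mm10). A KRAB box motif was found in 72 of the 97 genes, 23 had a coding sequence in which none was found, and 2 (Zfp783 and Zfp939) are annotated as pseudogenes. In the longest protein of each gene, the median number of finger motifs was 11 with a KRAB box (range 0 to 23) and 6 where none was found. The genes lie on 16 chromosomes, with 21 on chromosome 7, 18 on chromosome 17, 14 on chromosome 8 and 10 on chromosome 13. Of the 97, 62 sit within 1 Mb of another gene of the set, in 14 clusters. Copies are close enough that counts can be shared: 18 genes had more than 20% of their 31-base words in other genes' transcripts together. These shares were 100% for Zfp935, 97.7% for Zfp781, 95.6% for Zfp708 and 89.2% for Zfp960. The genes that held such words most often were Gm49359, Gm3055, Gm28557 and Zfp97, in that order. The share held by any single other gene was not counted. Exons of Zfp784 overlapped those of Zfp865 on the other strand over 94.8% of their length, and the library kit does not mark strand. Values of these genes are uncertain to that extent.

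Libraries held 1043740 to 10035066 counts at 2C and 1103574 to 13583527 at 8C, with 12174 to 16194 and 9672 to 15023 genes detected. Summed markers of the oocyte (8 genes) were 1149.6 to 8278 CPM (the depth-scaled count, here corrected by TMM factors) at 2C and 34.4 to 169.6 at 8C. The 8-cell markers (8 genes) summed to 119.5 to 3603 CPM at 2C and 1219 to 4266 at 8C, so their ranges overlapped. The labels carry no replicate numbers, so those used here were assigned within each group in the order of the samples in the series. Ctrl 8C replicate 6 and VP64 8C replicate 7 stood apart, with the lowest TMM factors at 8C (0.503 and 0.624). Since the labels do not say which pools came from separate matings or injections, p-values measure only the spread between these libraries, which may be technical in part.

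The 97 genes together took 0.150% to 1.0% of a library's counts. All of them had at least 1 count somewhere, and 36 had counts in all 36 libraries. Over all libraries 84 passed the filter on low counts, 80 passed within 2C and 66 within 8C. The 13 that did not pass over all libraries (Zfp711, Zfp712, Zfp764, Zfp768, Zfp773, Zfp783, Zfp786, Zfp787, Zfp811, Zfp827, Zfp831, Zfp879 and Zfp953) held 3 to 177 counts in all and reached at most 5.22 CPM. Among them are Zfp711, an X-linked gene whose human counterpart is known from intellectual disability, and Zfp827, a telomere-binding factor.

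Per kilobase of exon, Zfp706 was the most abundant gene of the set at both stages, with a mean of 104 CPM per kb at 2C and 264 at 8C. Zfp706 encodes a small protein with a single finger that restrains self-renewal in embryonic stem cells. The next at 2C were Zfp936 at 65.6, Zfp958 at 48.7, Zfp932 at 44.7 and Zfp935 at 44.4 CPM per kb, an order that rests in part on NI 2C replicate 4. Without that library, left out here after seeing the data, Zfp936 stood at 44 CPM per kb, Zfp830 at 41.4, Zfp932 at 40.3 and Zfp935 at 37, and Zfp958 at 27 was the ninth. At 8C, Zfp932 at 57.7, Zfp825 at 56.7, Zfp936 at 51.4, Zfp960 at 50.04, Zfp935 at 49.3 and Zfp820 at 47.4 CPM per kb followed Zfp706. These 6 lay close to one another, and each varied between libraries by more than its distance to its neighbours. Zfp932, which with its near copy Gm15446 silences retroviral elements in embryonic stem cells, ranged from 14.7 to 376 CPM in NI 2C and from 60.7 to 418 CPM in NI 8C. Of the words of Zfp932, 48.3% were also in other genes, most often in Gm15446.

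The summed level of the 97 genes differed little between groups against the spread within them. The 4 NI 2C libraries held 1963, 2579, 1773 and 8187 CPM. Ctrl 2C ranged from 1867 to 4114 CPM (3106 ± 721, SD, n = 7) and KRAB 2C from 1891 to 2772 (2340.2 ± 354, n = 6). NI 8C ranged from 1728 to 4524 CPM (2887 ± 998, n = 6), Ctrl 8C from 2173 to 5630.5 (3615 ± 1269, n = 6) and VP64 8C from 1773 to 3286 (2568 ± 498, n = 7). All 6 groups overlapped, and NI 2C replicate 4 was above every other library. The NI 2C mean was 3626 ± 3060.2 CPM with that library and 2105 without it. Zfp706, in which no KRAB box was found, made up 4.19% to 38.7% of the sum at 2C and 17.9% to 74.9% at 8C. The other 96 genes summed to 2442 ± 1552 CPM at 2C (SD, n = 17, range 1156 to 7844) and to 1685 ± 477 at 8C (n = 19, range 984 to 2766). In NI 2C replicate 4, Zfp936 stood at 1351 CPM against 163, 125 and 57.4 in the other NI 2C libraries, and Zfp825 at 618 CPM against 16.6, 59.3 and 0.717.

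**Figure D1:**
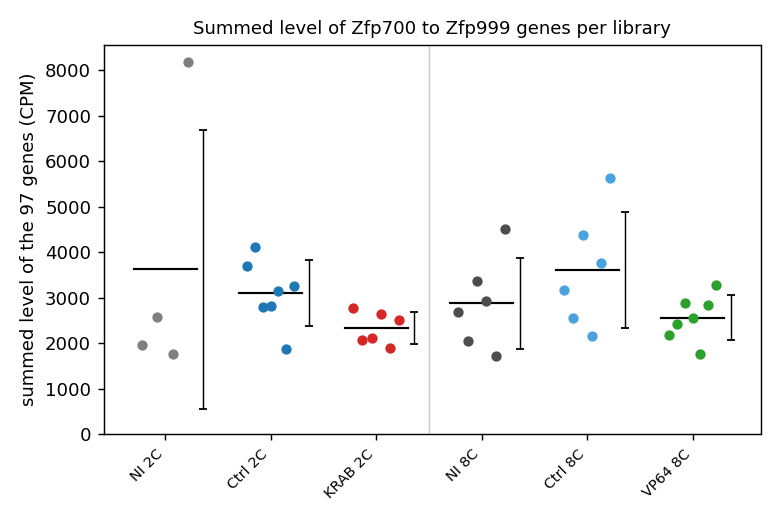
Summed CPM of the 97 genes in each of the 36 libraries (points), with the mean (line) and SD (bar) of each group. The groups overlap at both stages, and 1 NI 2C library, at 8187 CPM, lies above all the others.

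Between 2C and 8C many single genes of the set moved, mostly downward, as did genes at large. In NI embryos, 2 of the 84 genes tested rose and 21 fell (edgeR quasi-likelihood test, Benjamini-Hochberg adjusted p under 0.05 over all genes). Of all 13158 genes tested, 18.5% rose and 31.4% fell, so the share that fell in the set (25%) was below the background and the share that rose (2.38%) was well below it. The median log2 fold change was -1.0 in the set, -0.47 over all genes and -1.0 over 193 other numbered Zfp genes, of which 11 rose and 67 fell. In Ctrl embryos, 6 of the 84 rose and 32 fell, beside 22.5% and 39% of all genes. The medians there were -0.88 in the set, -0.51 over all genes and -1.21 over the other Zfp genes, of which 13 rose and 84 fell. In either direction this came to 23 genes in NI (49.9% of all genes) and 38 in Ctrl (61.5%). DESeq2 called 34 in NI (54.7% of all genes) and 44 in Ctrl (64.5%), and limma-voom 30 (56.6%) and 46 (73%). RNA of whole pools was measured, so less RNA per cell and a different number of cells cannot be told apart.

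The NI and Ctrl stage changes share no library. In both, 18 genes fell (Zfp703, Zfp708, Zfp709, Zfp735, Zfp738, Zfp750, Zfp759, Zfp760, Zfp788, Zfp791, Zfp809, Zfp810, Zfp930, Zfp942, Zfp944, Zfp946, Zfp948 and Zfp957), which is 18 of the 21 that fell in NI and 18 of the 32 that fell in Ctrl. Zfp820 and Zfp947 rose in both. Zfp935 was called in opposite directions, and 44 of the 84 genes (52.4%) were called in neither. Over all 13158 genes, 4129 fell in NI, 5135 fell in Ctrl and 3518 fell in both. Falls in both were thus 26.7% of all genes and 21.4% of the set, so the set lay below the background. Of all genes, 1810 (13.8%, against 2.38% of the set) rose in both, 20 were called in opposite directions and 3852 (29.3%) in neither.

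**Figure D2:**
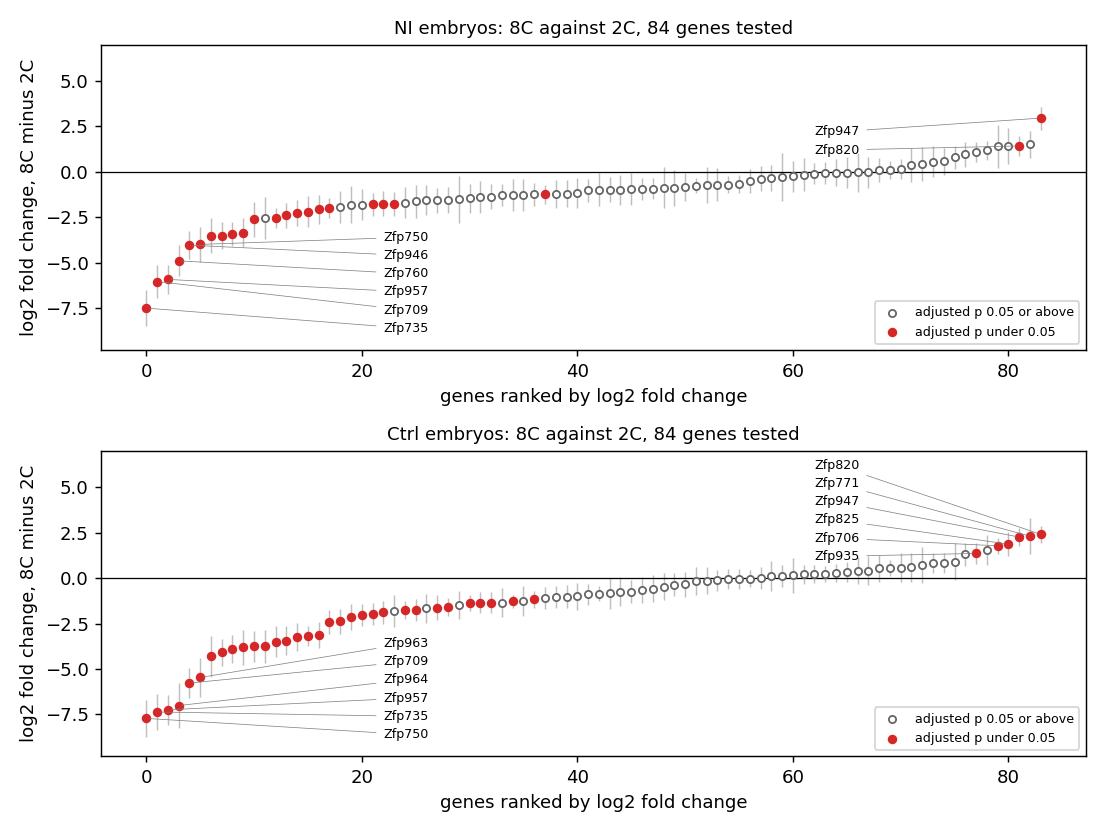
Log2 fold change from 2C to 8C for the 84 genes tested, ranked, in NI embryos (upper panel) and Ctrl embryos (lower panel), with bars of 1 SE and filled points for adjusted p under 0.05. Most filled points lie below 0 (21 of 23 in NI, 32 of 38 in Ctrl), and the value of Zfp964 in Ctrl depends on the prior count because its 8C libraries hold none.

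Zfp735, a KRAB-box gene with 7 finger motifs (chromosome 11, 73688778 to 73713798, plus strand), fell from a clear level to nearly nothing. The 4 NI 2C libraries held 3.68, 11.7, 22.2 and 65.2 CPM, and the Ctrl 2C libraries ran from 4.90 to 27.3 with a median of 22.2. At 8C, 4 NI libraries held no count and the other two 0.396 and 0.136 CPM, while in Ctrl 1 library held 0.377 and 5 held none. No 8C library of either group reached any 2C library. The log2 fold change was -7.50 ± 0.97 (SE) in NI (adjusted p = 1.1e-07, edgeR quasi-likelihood test), and -6.53 without NI 2C replicate 4 or -8.11 without NI 8C replicate 3. In Ctrl it was -7.36 ± 0.98 (adjusted p = 6.11e-08) and -9.26 without Ctrl 8C replicate 5. With only 2 counts in the Ctrl 8C group, the ratio of 2C to 8C is better read as 246, with a counting interval of 68.0 to 2038 (95%, counting error only). VP64 8C held 0.880 and 1.5 CPM in 2 libraries and none in the other 5.

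Zfp709, a KRAB-box gene with 18 finger motifs (chromosome 8, 71882019 to 71895727, plus strand), also fell to near 0. The NI 2C libraries held 11, 7.41, 11.5 and 23.5 CPM and the Ctrl 2C libraries 6.86 to 51.3 (median 36). In NI 8C 1 library held 0.991 CPM and the rest none, and Ctrl 8C ran from 0 to 1.2, so the stages did not overlap. It fell by 6.03 ± 0.93 on the log2 scale in NI (adjusted p = 1.91e-06, edgeR) and by 5.78 ± 0.83 in Ctrl (adjusted p = 2.79e-07). The NI value was -8.79 without NI 8C replicate 3, the single library with counts.

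A pair of genes of the set without a KRAB box or finger motif found were among the steepest falls. Zfp957 (chromosome 14, 79212355 to 79247369, minus strand) held 11.7, 49.3, 47.3 and 43.8 CPM in NI 2C and 0 to 1.29 in NI 8C. In Ctrl 2C its 7 libraries held 98.8, 28.5, 252, 46.9, 327, 25.5 and 419 CPM, against 0 to 2.64 at 8C. The stages stood wholly apart in both, with log2 fold changes of -5.92 ± 0.82 in NI (adjusted p = 3.26e-07, edgeR) and -7.25 ± 0.82 in Ctrl (adjusted p = 2.65e-09). Without NI 8C replicate 4 the NI value was -6.71.

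Zfp750 (chromosome 11, 121510978 to 121519333, minus strand), known as a driver of epidermal differentiation, held 3.68, 11.7, 30.1 and 9.55 CPM in NI 2C and 0 to 1.57 in NI 8C. In Ctrl 2C it split into high and low libraries, at 146, 9.55, 201, 5.11, 225, 5.88 and 254 CPM, against 0 to 1.51 at 8C. Every 2C library of either group lay above every 8C library of its own. The fall was -3.99 ± 0.95 in NI on the log2 scale (adjusted p = 7.26e-04, edgeR) and -7.72 ± 1.04 in Ctrl (adjusted p = 7.21e-08). Those values were -3.32 without NI 2C replicate 3 and -8.41 without Ctrl 8C replicate 5.

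Groups that did not overlap were found for 11 genes that were lower and 1 that was higher at 8C in NI. The same held for 20.7% and 12.8% of all genes, so 11 and 1 of 84 lie below the background. In Ctrl, 9 genes were lower and 1 higher without overlap, beside 17.3% and 7.13% of all genes. Zfp709, Zfp735, Zfp750, Zfp760 and Zfp957 were lower without overlap in both.

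**Figure D3:**
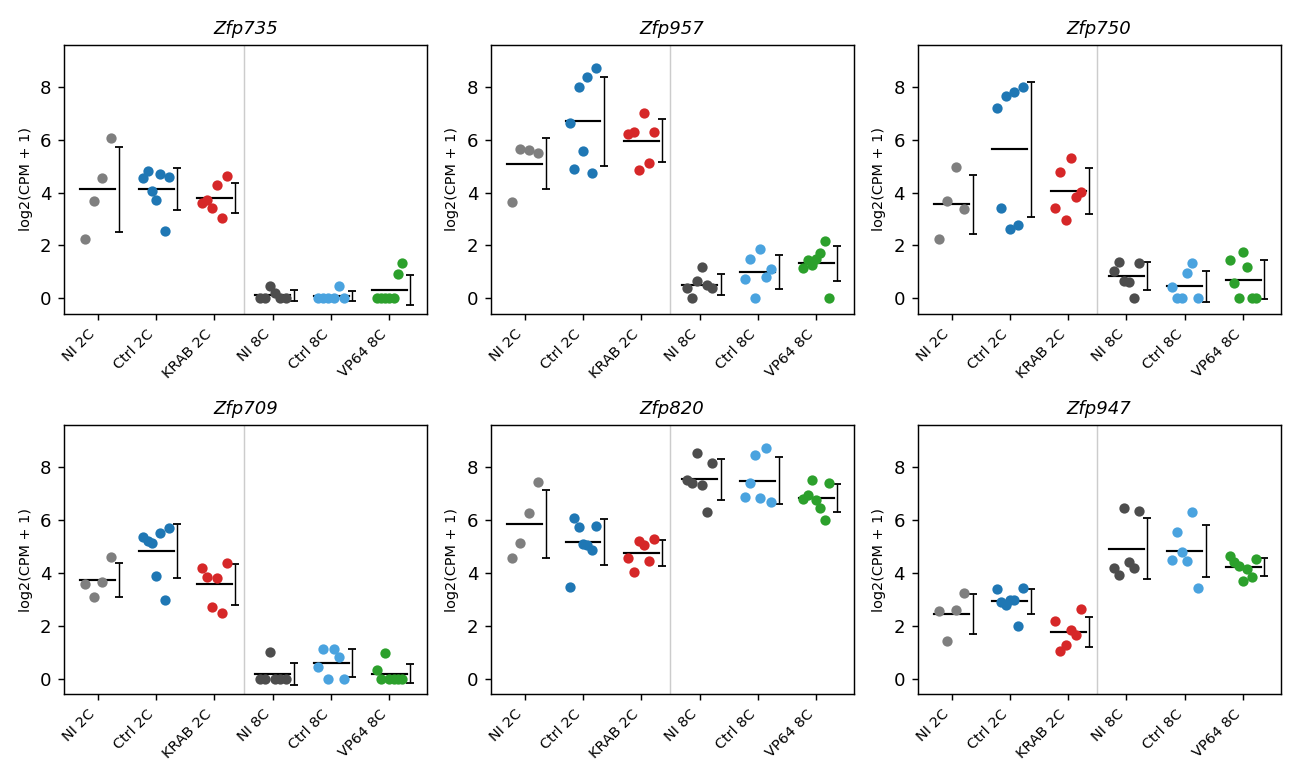
Log2(CPM + 1) in every library (points) of the 6 groups for Zfp735, Zfp957, Zfp750, Zfp709, Zfp820 and Zfp947, with group means (lines) and SD (bars). The first 4 genes drop close to 0 in all 8C groups, VP64 included, while Zfp820 and Zfp947 lie higher at 8C.

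Other falls in NI were Zfp760 (log2 fold change -4.89 ± 0.85, adjusted p = 1.2e-05, edgeR), Zfp946 (-4.03 ± 0.78) and Zfp942 (-3.51 ± 0.73). Zfp948 followed at -3.43 ± 0.66 and Zfp703 at -3.34 ± 0.79. Zfp946 fell by 2.73 and Zfp942 by 1.72 on the log2 scale without NI 2C replicate 4. Zfp760 fell by 5.52 without NI 8C replicate 1, and Zfp703 by 2.67 without NI 2C replicate 3 or by 3.96 without NI 8C replicate 1. Zfp810 fell by 2.62 ± 0.98, and its adjusted p rose to 0.108 without NI 2C replicate 4 and to 0.0598 without NI 8C replicate 6; its value was -3.23 without NI 8C replicate 3. Among genes that fell in Ctrl, Zfp963 stood at -5.47 ± 1.09 (adjusted p = 5.08e-05, edgeR), with 40.8% of its exon length shared with Gm20422. Zfp964 had 169 counts over the Ctrl 2C libraries and none over the Ctrl 8C libraries, and was at least 31-fold lower when its Ctrl 8C total is set to a floor of 3 counts for the whole group. In Ctrl, Zfp946 fell by 4.09 ± 0.75 and Zfp760 by 3.9 ± 0.77, and without Ctrl 8C replicate 5 these were -4.84 and -5.17. Zfp810 fell by 3.8 ± 0.96 in Ctrl, by 2.90 without Ctrl 2C replicate 2 and by 5.45 without Ctrl 8C replicate 5, and by limma-voom it stood at -1.40 (adjusted p = 0.0847) and did not pass. Zfp759 fell by 3.75 ± 0.92.

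Of the 84 genes only Zfp820 and Zfp947 rose with stage in both NI and Ctrl. Both are KRAB-box genes, with 12 and 9 finger motifs, and both lie in the cluster on chromosome 17 described below. The NI 2C libraries held 22.7, 33.7, 76.7 and 174 CPM of Zfp820 and the NI 8C libraries 78.4 to 369 (median 174), so that NI 2C replicate 4 lay inside the 8C range. Ctrl 2C ran from 9.97 to 67.4 CPM and Ctrl 8C from 102 to 417, with no overlap. Zfp820 rose by a log2 fold change of 1.42 ± 0.55 in NI (adjusted p = 0.0291, edgeR) and 2.41 ± 0.47 in Ctrl (adjusted p = 3.14e-05). The NI call was lost without NI 2C replicate 1, 2 or 3 (adjusted p = 0.110, 0.136 and 0.0599) or NI 8C replicate 3 (0.0561), and the value was 2.10 without NI 2C replicate 4.

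Zfp947 held 4.91, 1.67, 5.02 and 8.40 CPM in NI 2C and 14.2 to 86.8 in NI 8C (median 18.8), with no overlap. In Ctrl it ran from 2.94 to 9.89 CPM at 2C and from 9.71 to 77 at 8C, where the lowest 8C library fell just within the 2C range. The rise was 2.96 ± 0.63 in NI (adjusted p = 2.11e-04, edgeR) and 2.26 ± 0.49 in Ctrl (adjusted p = 1.42e-04) on the log2 scale. Zfp947 shared 36.7% of its words with other genes, most often with Zfp995.

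A further 4 genes (Zfp706, Zfp825, Zfp771 and Zfp935) passed as higher at 8C in Ctrl and did not in NI. Zfp706 went from 342 to 1099.98 CPM at 2C to 752 to 4216 at 8C, a log2 fold change of 1.78 ± 0.44 (adjusted p = 6.32e-04, edgeR). In NI its log2 fold change was 1.19 ± 0.52 (adjusted p = 0.0552), with 343 to 617 CPM at 2C and 526 to 2138 at 8C. Both pairs of groups overlapped in part. Zfp825 rose by 1.87 ± 0.68 in Ctrl (adjusted p = 0.0165, or 0.0539 without Ctrl 8C replicate 1) and stood at -0.83 in NI, where NI 2C replicate 4 alone held 618 CPM. Zfp771 rose by 2.31 ± 1.0 in Ctrl (adjusted p = 0.0439), with Ctrl 8C libraries from 0.240 to 54.1 CPM, and lost the call without any 1 of 8 libraries of the 13, replicates 1, 2, 3, 5, 6 and 7 of Ctrl 2C and 1 and 2 of Ctrl 8C (values 1.93 to 2.42).

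Zfp935 was the gene called in opposite directions. It fell by 1.74 ± 0.66 in NI on the log2 scale (adjusted p = 0.0261, edgeR), from 45.7 to 265 CPM at 2C to 28.4 to 69.4 at 8C. In Ctrl it rose by 1.36 ± 0.58 (adjusted p = 0.0408), with 371 CPM in Ctrl 8C replicate 6 and 31.8 to 93.2 in the other 5. The Ctrl value was 0.40 (adjusted p = 0.547) without that library, and the call was also lost without Ctrl 2C replicate 1, 2, 3, 4, 5 or 7 (1.05 to 1.30). Without Ctrl 2C replicate 6, the highest of its group at 162 CPM, it was 2.22. The Ctrl rise did not pass by DESeq2 (1.2, adjusted p = 0.0624). The difference of the stage change between Ctrl and NI was 3.10 ± 0.88 and did not pass in edgeR (adjusted p = 0.0849), while it passed by DESeq2 (3.19, adjusted p = 0.0260) and limma-voom (2.98, adjusted p = 0.00220) and in edgeR without Ctrl 2C replicate 6 (3.97, adjusted p = 0.00400). All of the exon length of Zfp935 is covered by other genes, 1606 of its 1631 bases by Gm49359 on the same strand.

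Genes of the set with a known role in silencing or in the embryo were read by role. Zfp809, which silences retroviruses through their primer binding site, held 10.4, 53.8, 20.8 and 89.6 CPM in NI 2C and 5.23 to 15.9 in NI 8C. Its Ctrl libraries ran from 14.7 to 62.3 CPM at 2C and from 3.43 to 21.3 at 8C. The groups overlapped by their lowest 2C libraries, and the fall passed in both (NI -1.98 ± 0.56, adjusted p = 0.00333; Ctrl -1.74 ± 0.50, adjusted p = 0.00302, edgeR). Zfp819, a KAP1-binding repressor of transposons, went from 6.86 to 17.8 CPM in Ctrl 2C to 0 to 5.51 in Ctrl 8C, a log2 fold change of -1.96 ± 0.62 (adjusted p = 0.00599), and stood at -0.98 ± 0.68 in NI (adjusted p = 0.229). Zfp708, which binds a retrotransposon family and guards its methylation, stood at -2.20 ± 0.86 on the log2 scale in NI (adjusted p = 0.0318) and at -3.76 ± 0.85 in Ctrl (adjusted p = 2.53e-04). The NI value was -0.67 (adjusted p = 0.565) without NI 2C replicate 4, and the call was lost by a little without NI 8C replicate 3, 5 or 6 (adjusted p = 0.0602, 0.0593 and 0.0690) and by limma-voom (-1.60, adjusted p = 0.0782). Gm28557 covers 96.4% of its exon length on the same strand, so reads of the pair may not have been told apart.

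Zfp932 did not pass in either (NI 0.96 ± 0.67, adjusted p = 0.233; Ctrl -0.13 ± 0.56, adjusted p = 0.857, edgeR). Zfp830, a nuclear protein that embryos need around implantation, held 57.4 to 74.3 CPM in NI 2C and 23.2 to 57.9 in NI 8C (-0.77 ± 0.42, adjusted p = 0.121). In Ctrl it fell from 34.7 to 71.6 CPM at 2C to 6.28 to 38.6 at 8C (-1.28 ± 0.37, adjusted p = 0.00323). Zfp703, a corepressor of growth and differentiation genes, fell in both (Ctrl -2.15 ± 0.72, adjusted p = 0.00933, and -2.94 without Ctrl 8C replicate 6). Zfp746, a repressor known as PARIS in neurons, was near the detection limit at 0 to 8.41 CPM and did not pass (NI 0.41 ± 0.94, adjusted p = 0.736; Ctrl 0.59 ± 0.77, adjusted p = 0.524). Zfp800 did not pass either, at -1.56 ± 0.82 in NI (adjusted p = 0.110) and -0.58 ± 0.74 in Ctrl (adjusted p = 0.512).

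Features of the proteins and of the loci were set beside the stage change as a description. Of 65 tested genes with a KRAB box, 2 rose and 18 fell in NI (median -1.17) and 4 rose and 26 fell in Ctrl (median -0.90). Of 18 in which no box motif was found, none rose and 3 fell in NI (median -0.96), and 2 rose and 6 fell in Ctrl (median -0.80). With 10 or more finger motifs (50 genes), 1 rose and 14 fell in NI, and with fewer (33 genes) 1 rose and 7 fell. Inside clusters 13 of 53 fell in NI, and outside 8 of 31. Among 17 tested genes with over 20% shared words, 3 fell in NI (median -1.02) and 4 in Ctrl (median -0.03). This class also holds Zfp947 (36.7% shared words), which rose in both, and Zfp825 (48.2%) and Zfp935 (100%), which rose in Ctrl. The other genes that rose, Zfp820, Zfp706 and Zfp771, shared 10.7%, 8.7% and 0% of their words. None of these differences between classes was tested.

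The cluster with the most genes lies on chromosome 17, from 21567008 to 22867134 (GRCm38), and holds 10 KRAB-box genes of the set in the order Zfp948, Zfp760, Zfp820, Zfp942, Zfp943, Zfp947, Zfp944, Zfp758, Zfp946 and Zfp945. Genes that fell and genes that rose were interleaved along it. Zfp948, Zfp760, Zfp942, Zfp944 and Zfp946 fell in both NI and Ctrl, Zfp820 and Zfp947 rose in both, and Zfp943 fell in Ctrl (-3.11 ± 0.72) and stood at -1.21 in NI (adjusted p = 0.174, edgeR). Zfp758 (-0.98 in NI, adjusted p = 0.325; -0.66 in Ctrl, adjusted p = 0.440) and Zfp945 (-0.89 and 0.73) passed in neither.

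**Figure D4:**
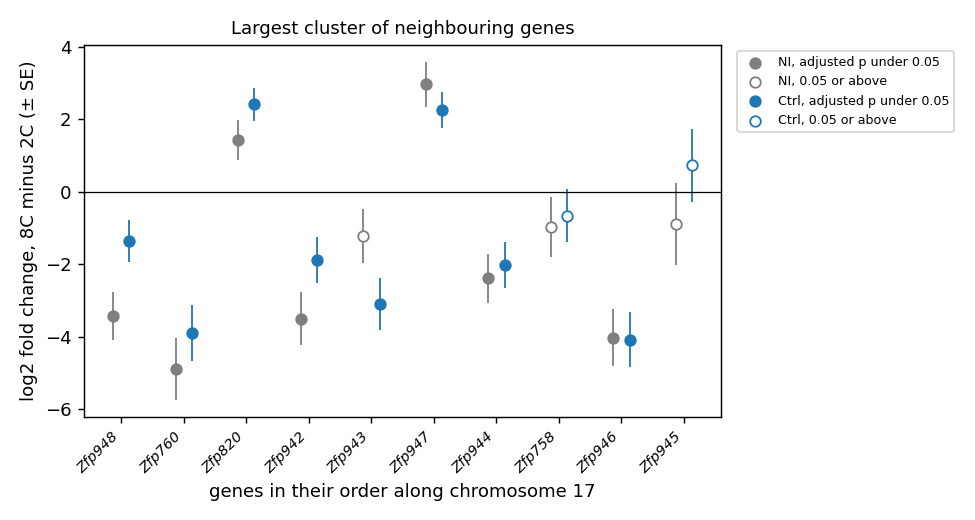
Log2 fold change from 2C to 8C (± SE) of the 10 genes of the chromosome 17 cluster in their order along the chromosome, NI in grey and Ctrl in blue, filled where adjusted p was under 0.05. Zfp820 and Zfp947 lie above 0 in both, with falling genes on either side of each.

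The neighbours differed in level as well as in direction. Zfp942 (21926960 to 21962464, minus strand) held 11, 18.4, 20.8 and 203 CPM in NI 2C and 0.402 to 11 in NI 8C, while its Ctrl libraries ran from 11.8 to 84 CPM at 2C and from 3.04 to 13 at 8C. Zfp944 (22337989 to 22361400, minus strand) held 9.82, 16.7, 17.2 and 159 CPM in NI 2C and 0.402 to 20.8 in NI 8C. In both genes NI 2C replicate 4 was far above the other 3, and 2 of the NI 8C libraries of Zfp944 lay above its lowest NI 2C library. Zfp946 (22424222 to 22456689, plus strand) went from 4.30 to 51.4 CPM in NI 2C to 0.136 to 2.36 in NI 8C, without overlap.

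The promoters of both risers and of some fallers of this cluster are shown to let their letters be compared. Fallers were shown only where the window held CACGTG, so its presence in those shown was fixed by that choice. Zfp760 and Zfp948, which also fell in both NI and Ctrl, lacked it and are not shown. They come from RefSeq (GRCm38.p6) and run from 250 bases before to 50 bases after the annotated start, 5′ to 3′ on the gene's strand; 85 of the 97 genes had such a window. Capitals mark CACGTGACC or its reverse complement, an E-box (CACGTG) with 3 further bases, a motif picked after the sequences had been read. Zfp820 (chr17:21845710-21846009, minus strand) and Zfp947 (chr17:22165928-22166227, minus strand, its start 213 bases from the GENCODE 5′ end) rose, and Zfp942 (chr17:21962415-21962714, minus), Zfp944 (chr17:22361351-22361650, minus) and Zfp946 (chr17:22423952-22424251, plus) fell:
Zfp820: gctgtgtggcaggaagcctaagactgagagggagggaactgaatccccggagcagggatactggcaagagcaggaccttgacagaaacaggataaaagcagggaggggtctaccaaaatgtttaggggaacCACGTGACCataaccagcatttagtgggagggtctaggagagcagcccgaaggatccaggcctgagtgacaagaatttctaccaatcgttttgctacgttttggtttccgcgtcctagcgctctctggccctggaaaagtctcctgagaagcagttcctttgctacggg
Zfp947: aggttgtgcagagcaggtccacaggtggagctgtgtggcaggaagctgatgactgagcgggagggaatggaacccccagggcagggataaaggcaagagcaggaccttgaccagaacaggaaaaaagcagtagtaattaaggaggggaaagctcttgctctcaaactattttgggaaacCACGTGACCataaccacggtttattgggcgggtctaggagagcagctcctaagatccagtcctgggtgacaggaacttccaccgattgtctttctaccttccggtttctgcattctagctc
Zfp942: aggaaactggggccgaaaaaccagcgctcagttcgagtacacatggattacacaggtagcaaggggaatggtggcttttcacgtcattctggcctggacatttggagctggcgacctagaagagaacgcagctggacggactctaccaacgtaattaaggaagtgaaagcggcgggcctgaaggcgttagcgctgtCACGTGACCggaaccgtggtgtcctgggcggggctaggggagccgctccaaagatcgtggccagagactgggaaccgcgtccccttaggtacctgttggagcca
Zfp944: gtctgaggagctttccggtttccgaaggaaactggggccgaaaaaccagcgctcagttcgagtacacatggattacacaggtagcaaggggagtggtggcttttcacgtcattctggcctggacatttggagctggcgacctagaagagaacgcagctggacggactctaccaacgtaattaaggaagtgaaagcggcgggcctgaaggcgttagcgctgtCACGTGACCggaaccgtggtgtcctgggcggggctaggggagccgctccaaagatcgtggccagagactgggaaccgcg
Zfp946: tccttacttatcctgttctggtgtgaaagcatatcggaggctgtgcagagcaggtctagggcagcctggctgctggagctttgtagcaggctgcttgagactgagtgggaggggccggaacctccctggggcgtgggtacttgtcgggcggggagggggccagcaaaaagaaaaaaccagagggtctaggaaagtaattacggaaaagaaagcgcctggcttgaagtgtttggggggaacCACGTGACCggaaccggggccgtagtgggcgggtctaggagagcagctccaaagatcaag
The motif, searched on both strands, occurred in 7 of the 10 windows of the cluster, 8.2% of the 85 windows of the set (the same 7) and 1.1% of 27025 windows of all RefSeq genes. It was present in both risers and in fallers (Zfp942, Zfp944 and Zfp946), in Zfp943 and in Zfp758, and was not found in Zfp760, Zfp948 or Zfp945. The windows of Zfp942 and Zfp943 overlap head to head over 194 bases and those of Zfp944 and Zfp758 over 162. Zfp942 and Zfp944 hold an identical run of 207 bases, and the longest run shared by the risers Zfp820 and Zfp947 was 20 bases. So the windows are not independent sequences. Over the 85 windows of the set, the other motifs searched (both strands) were GGGCGG in 43.5% (35.6% of all windows), CCGGAA in 30.6% (15.1%), CCAAT in 61.2% (37.8%) and TATAAA in 3.5% (14.1%). CACGTG without the further bases was in 16.5% (14 windows, 7 of them in the cluster) and in 7.1% of all windows. The median count of CpG was 11 in the set and 7 over all windows. For the set, the window nearest the start of each gene in GENCODE was taken. Among all RefSeq genes it was the window with the lowest genomic position of each symbol. The values of the set and of all windows given here are therefore not strictly like for like. A match is a description of letters and no evidence that a factor binds.

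The partners of KRAB zinc fingers were taken as a list of 29 genes of the KAP1 pathway. In NI, 4 rose and 8 fell with stage (median log2 fold change -0.03), and in Ctrl 7 rose and 11 fell (median -0.46). These are 13.8% and 27.6% of the list in NI and 24.1% and 37.9% in Ctrl, near the shares of all genes given above (18.5% and 31.4%, and 22.5% and 39%). Trim28, which encodes KAP1, rose by 1.41 ± 0.47 on the log2 scale in NI (adjusted p = 0.0114, edgeR) and by 1.88 ± 0.39 in Ctrl (adjusted p = 7.98e-05). Its libraries held 14.2 to 108 CPM at 2C and 97.6 to 239 at 8C over all 6 groups, with an overlap at the edge. Setdb1, the histone methyltransferase of the complex, fell in Ctrl (-2.04 ± 0.37, adjusted p = 1.42e-05) and stood at -0.82 ± 0.41 in NI (adjusted p = 0.0900, edgeR, or 0.0397 without NI 2C replicate 1). The NI fall of Setdb1 passed by DESeq2 (-1.08, adjusted p = 0.0182), with its size factors in edgeR (-1.09, 0.0299) and by limma-voom (-0.81, 0.0416). In NI the largest falls were those of the methyltransferase gene Suv39h2 (-3.28), the methylation cofactor Uhrf1 (-3.22), the heterochromatin protein gene Cbx1 (-3.20, or -2.36 without NI 2C replicate 3) and the imprint guardian Zfp57 (-3.08). The Ctrl values were -6.04 for Zfp57, -4.98 for Uhrf1 and -3.52 for Suv39h2 (-2.90 without Ctrl 2C replicate 1), while Cbx3 rose by 3.98, a call lost without Ctrl 8C replicate 6 (1.62, adjusted p = 0.106). Ctrl 2C replicates 1, 3, 5 and 7 held 650 to 887 CPM of Zfp57, and replicates 2, 4 and 6 held 25.5 to 89.2. For Uhrf1 the same libraries held 281 to 480 and 43.1 to 83.2 CPM. The part of this split in the Ctrl values was not tested. None of the 29 (28 tested at 8C) passed in edgeR in a comparison within a stage, where 0% of all genes did. The list was not counted by DESeq2 or limma-voom within a stage.

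Within the 2C stage the labels set KRAB, Ctrl and NI embryos side by side, and these comparisons share libraries. In KRAB against Ctrl, 0 of 80 genes of the set passed, as did 0% of all 11799 genes (edgeR quasi-likelihood test, adjusted p under 0.05). At an unadjusted p under 0.05, 0 genes of the set were higher and 9 lower, beside 3.86% and 11.7% of all genes, so the 9 of 80 are at the background. The median log2 fold change was -0.24 in the set, -0.31 over the other Zfp genes and -0.13 over all genes. DESeq2 called 0 of the 80 (1.93% of all genes) and limma-voom 32 (44.5% of all genes).

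The smallest p-values in KRAB against Ctrl belonged to Zfp750 (log2 fold change -2.46 ± 0.81, adjusted p = 0.230, edgeR) and Zfp873 (-1.89 ± 0.68, adjusted p = 0.237). Zfp750 held 6.81 to 38.9 CPM in KRAB (18.4 ± 12.1, SD, n = 6) and, as given above, 4 Ctrl libraries at 146 to 254 and 3 at 5.11 to 9.55 CPM. All KRAB values lay between those sets of Ctrl libraries or among the low ones. Zfp873 held 5.41 to 17.9 CPM in KRAB and 8.82 to 123 in Ctrl. Zfp951 (98.4 against 268 CPM, -1.25 ± 0.52), Zfp709 (12.2 against 32.3 CPM, -1.22 ± 0.46) and Zfp947 (2.64 against 6.89 CPM, -1.22 ± 0.50) also had lower means, with adjusted p of 0.275, 0.247 and 0.274. For each of the 5 genes the groups overlapped. By limma-voom, which called 44.5% of all genes, each of the 5 passed (adjusted p = 0.00178 for Zfp750 to 0.0303 for Zfp947).

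Ctrl 2C libraries were unlike one another in several of these genes. Zfp951 held 537, 254, 265, 123, 319, 35.3 and 342 CPM in replicates 1 to 7, and Zfp846 26.2, 8.52, 20.02, 5.11, 27.3, 0.980 and 34.3. Replicates 1, 3, 5 and 7 were high in Zfp750, Zfp846 and Zfp963, and replicates 2, 4 and 6 low. The summed oocyte markers of the same libraries, in the same order, were 4751, 1552, 6088, 1149.6, 8178, 2081 and 8278 CPM, higher in the same 4. NI 2C held 1189 to 5441 and KRAB 2C 1907 to 4069 CPM of these markers. Replicate 6 stood apart in other ways too: its 8-cell markers summed to 3308 CPM against 119.5 to 489 in the other 6 Ctrl 2C libraries, and it had the lowest total (1043740 counts) and the fewest genes detected (12174) at 2C. High sums of these markers were also seen in KRAB replicate 1 (3603 CPM) and NI replicates 3 and 1 (2442 and 1947). Stromal and blood cell markers summed to 10.04 to 96.9 CPM in NI 2C, 0.924 to 27.8 in Ctrl 2C and 0.869 to 119 in KRAB 2C, with Col1a2, Col3a1, Ptprc and Hbb-bs at 0 in each. Of this list 3 genes were tested: at an unadjusted p under 0.05 all 3 were lower in Ctrl than in NI (median log2 fold change -6.50) and higher in KRAB than in Ctrl (4.04), and 1 was lower in KRAB than in NI (-2.0). All 3 also fell from NI 2C to NI 8C (adjusted p under 0.05 in edgeR, median -7.87), where the sums were 1.29 to 8.65 CPM. The part of these libraries and markers in the differences between groups was not tested.

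**Figure D5:**
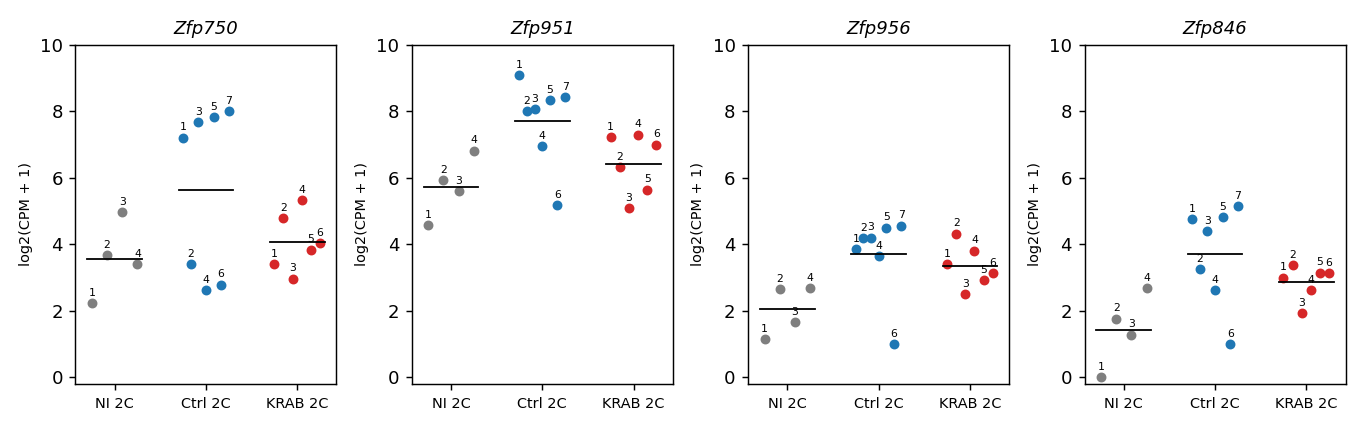
Log2(CPM + 1) of Zfp750, Zfp951, Zfp956 and Zfp846 in each 2C library, numbered by replicate, with group means (lines). Ctrl replicates 1, 3, 5 and 7 lie above replicates 2, 4 and 6 in Zfp750 and Zfp846, and replicate 6 is the lowest Ctrl library in Zfp951, Zfp956 and Zfp846.

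In Ctrl against NI at 2C, 0 of 80 genes passed in edgeR, again beside 0% of all genes. At an unadjusted p under 0.05, 6 were higher and 8 lower in Ctrl (14.8% and 8.59% of all genes), a share below the background on the higher side and near it on the lower, and the medians were -0.33 in the set and 0.07 over all genes. DESeq2 called 6 of the 80 (9.04% of all genes) and limma-voom 26 (50.8%). By edgeR the smallest p-values belonged to Zfp964 and Zfp846. Zfp964 averaged 3.63 CPM in Ctrl and 0.120 in NI (4.21 ± 1.23, adjusted p = 0.121). NI held 2 counts of it in all, and the ratio was 27.5 with a counting interval of 7.5 to 229. It passed by DESeq2 (4.08, adjusted p = 0.0183) and limma-voom (3.64, 0.00354). With so few counts in NI, Zfp964 passed the filter on low counts only through the Ctrl and KRAB libraries. Its lead and these passes are therefore no separate support for a difference. The next were Zfp846 (17.5 against 2.31 CPM, log2 fold change 2.60 ± 0.78, adjusted p = 0.121), Zfp951 (268 against 60.3 CPM, 1.97 ± 0.62, adjusted p = 0.125) and Zfp956 (14.96 against 3.52 CPM, 1.85 ± 0.60, adjusted p = 0.131). Zfp956 held 1.23, 5.26, 2.15 and 5.43 CPM in NI and 11.5 to 22.6 in 6 Ctrl libraries, with replicate 6 at 0.980. Without Ctrl 2C replicate 6, 8 of the 80 passed, beside 11.6% of all genes, among them Zfp846 (2.66, adjusted p = 0.0244), Zfp951 (2.02, 0.0268), Zfp956 (1.92, 0.0244) and Zfp964 (4.28, 0.0288). Zfp825 stood lower in Ctrl (25.5 against 174 CPM, -2.74 ± 0.96, adjusted p = 0.134), with 618 CPM in 1 of the 4 NI libraries. Zfp846, Zfp951, Zfp956 and Zfp825 also passed by DESeq2 (adjusted p = 0.0141, 0.0224, 0.0267 and 0.0423). They passed by limma-voom too (adjusted p = 0.00129, 0.00205, 0.00538 and 0.0124).

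In KRAB against NI at 2C, 0 of 80 genes and 0% of all genes passed, and DESeq2 and limma-voom called 0 of the 80. At an unadjusted p under 0.05, 3 were higher and 8 lower, shares above the 1.16% and 1.96% of all genes, and the median was -0.33 in the set and -0.02 over all genes. The leading genes, all lower in KRAB, were Zfp825 (-3.37), Zfp938 (-3.03), Zfp934 (-2.56), Zfp930 (-1.63) and Zfp820 (-1.46), each with an adjusted p of 0.998 (edgeR). In each of these genes NI 2C replicate 4 was the highest NI 2C library, at 618 CPM of Zfp825, 513 of Zfp930, 390 of Zfp934 and 56 of Zfp938. Zfp934 and Zfp930 changed sign without NI 2C replicate 4, to 0.97 and 0.20. How far the shares above those of all genes rest on that library was not tested. Zfp747 was the 1 gene whose groups did not overlap (0.347% of all genes were so placed on that side, and 0.263% on the other, where the set had 0). It held 2.59 to 4.94 CPM in KRAB and 0, 1.67, 0 and 1.15 in NI.

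Within the 8C stage, 0 of 66 genes of the set and 0% of all 9850 genes passed in VP64 against Ctrl, in Ctrl against NI and in VP64 against NI (edgeR), and DESeq2 and limma-voom called 0 of the 66 in each. DESeq2 called 0.0102%, 0.0102% and 0.183% of all genes in these comparisons, and limma-voom 0%, 0% and 0.142%. In VP64 against Ctrl, 0 were higher and 1 lower at an unadjusted p under 0.05 (1.54% and 2.45% of all genes), and the median was -0.18 in the set and -0.06 over all genes. Zfp820 held 62.5 to 182 CPM in VP64 (119.98 ± 42.7, SD, n = 7) and 102 to 417 in Ctrl (212 ± 138, n = 6), which gave a fitted change of -0.83 ± 0.40 on the log2 scale (adjusted p = 0.999). Zfp947 held 12 to 23.9 CPM in VP64 and 9.71 to 77 in Ctrl (-0.89 ± 0.48, adjusted p = 0.999). Both overlapped widely.

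In Ctrl against NI at 8C, 3 were higher and 1 lower at an unadjusted p under 0.05 (3.2% and 1.16% of all genes), with a median of -0.07 (-0.03 over all genes). In VP64 against NI, 0 were higher and 3 lower (3.77% and 3.4% of all genes), with a median of -0.21 (-0.07 over all genes). Zfp710 led there, at 8.80 to 16.5 CPM in VP64 and 13.3 to 70.8 in NI (-1.28 ± 0.46, adjusted p = 0.623, edgeR). Zfp932 held 96.2 to 204 CPM in VP64 and 60.7 to 418 in NI (-0.82, adjusted p = 0.672). The genes that fell to nearly nothing at 8C were also near 0 in VP64, with 0 to 3.52 CPM of Zfp957, 0 to 2.40 of Zfp750 and 0 to 0.95 of Zfp709.

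The difference of the stage change between Ctrl and NI passed for 0 of 84 genes and 0% of all 13158 genes (edgeR). At an unadjusted p under 0.05 it was positive for 7 and negative for 6, beside 6.78% and 13.6% of all genes. DESeq2 called 2 of the 84 (4.77% of all genes), Zfp935 and Zfp846 (-3.53, adjusted p = 0.0425), and limma-voom 17 (27.4%). After Zfp935, the leading genes were Zfp846 (-3.41 ± 1.2, adjusted p = 0.116, edgeR), Zfp951 (-2.26 ± 0.79, adjusted p = 0.117), Zfp750 (-3.73 ± 1.35, adjusted p = 0.123) and Zfp825 (2.70 ± 1.01, adjusted p = 0.134). By limma-voom these passed, in the same order, at adjusted p = 0.00793, 0.0150, 0.00849 and 0.0257. Without Ctrl 2C replicate 6, 6 of the 84 passed, beside 8.36% of all genes, among them Zfp935 (3.97, adjusted p = 0.00400), Zfp951 (-2.45, 0.0350), Zfp846 (-3.61, 0.0440) and Zfp750 (-3.93, 0.0472). Zfp825 stood at -0.033 without NI 2C replicate 4.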

How the data were processed

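RNA-seq (SMART-seq v4, per the labels' protocols) had been made from pools of embryos. The authors deposited RSEM expected counts per gene; Bowtie2, RSEM and mm10 are named in the submitters' processing notes, with no version, and no annotation is stated in the labels. The deposited counts were rounded to whole numbers. Groups came from the treatment and stage labels. Genes were filtered with filterByExpr (minimum count 10, minimum total 15), scaled by TMM and tested with edgeR 4.0.16 (R 4.3.3; glmQLFit and glmQLFTest, robust) and Benjamini-Hochberg adjustment over all genes (threshold 0.05). Comparisons within a stage were fitted on the 17 libraries at 2C or 19 at 8C, and those across stages on all 36. The biological coefficient of variation was 0.738, 0.609 and 0.703 in these fits, which with 4 to 7 libraries a group limits precision. CPM are rounded counts over the library total times its TMM factor; figures use log2(CPM + 1). The edgeR step was tested on simulated counts.

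Alternatives were DESeq2 1.42.0, its size factors in edgeR, limma-voom 3.58.1 with sample weights, no filter, only the groups compared, and each library left out. Genes were named by rule: per comparison the 10 largest rises and falls past the threshold with a mean of at least 5 CPM in 1 group, or else the 5 smallest p, plus the 10 highest per kb of exon at each stage, members with known roles and leading KAP1 genes; this gave 45 genes of the set. Other genes (Zfp747, whose groups did not overlap, and those of the chromosome 17 cluster) were named after their values were seen. The members and lists were chosen with earlier results of these data known. Positions, exon lengths and protein motifs came from GENCODE vM21; a RefSeq protein table was planned and not used here. A wider KRAB motif was added after seeing the data: the first one found 43 boxes and both together 72. All 97 symbols matched GENCODE. Of marker lists, cumulus cell genes (15) summed to 17.8 to 396 CPM at 2C and 15.6 to 404 at 8C, with 3 or 4 at 0 in each 2C group, among them Amh and Lhcgr; stromal and blood genes (10 of 11 in the table) to 0.869 to 119 at 2C and 0 to 79.2 at 8C, with Col1a2, Col3a1, Lum, Ptprc and Hbb-bs at 0 in every group; sperm genes (8) to 0 to 20.8 and 0 to 2.14; 2-cell markers (9) to 1013 to 4556 and 403 to 2367.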

Additional observations from a re-analysis of the deposited data

Results flagged for a closer look

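In 13 of 191 groups and values looked at (the summed level and each named gene with a mean of at least 5 CPM in a group), 1 library stood so far from the others on the log2(CPM + 1) scale that the gap took up most of the group's range (Dixon's critical value). Chance gives about 1 in 20. Ctrl 2C replicate 6 was far below the other 6 libraries in Zfp946 (1.96 against 8.49 to 20.3 CPM), Zfp956 (0.980 against 11.5 to 22.6) and Zfp960 (21.6 against 87.0 to 124). The 8C libraries with the lowest TMM factors accounted for 4 more. In Ctrl 8C replicate 6, Zfp707 stood at 4.57 CPM (others 41.7 to 66.3) and Zfp870 at 37.7 (others 5.38 to 10.2). In VP64 8C replicate 7, Zfp707 stood at 12.6 CPM (others 49.2 to 65.9) and Zfp830 at 16.2 (others 30.8 to 38.4). In KRAB 2C replicate 3, Zfp760 stood at 23.8 CPM (others 9.72 to 13.6) and Zfp830 at 157 (others 53 to 78.5). In NI 2C replicate 1, Zfp830 was high at 74.3 CPM (others 57.4 to 59.9) and Zfp957 low at 11.7 (others 43.8 to 49.3). Zfp771 stood at 0.240 CPM in Ctrl 8C replicate 4 (others 14.3 to 54.1), and Zfp873 at 26.9 in Ctrl 8C replicate 5 (others 9.14 to 13.2).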

How the results depend on the processing

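No paired analysis was possible because the labels carry no replicate numbers. Of 1459 alternative values of named genes, 1385 kept their direction and side of the threshold, 34 came to pass, 37 ceased to pass and 3 changed sign. The 3 changed sign without NI 2C replicate 4: with 1 library left out in turn, Zfp934 ran from -3.05 to 0.97 and Zfp930 from -2.05 to 0.20 in KRAB against NI, and Zfp825 from -0.033 to 3.21 in the difference of stage changes. Counts of genes passing moved as follows. limma-voom gave 32 in KRAB against Ctrl at 2C, 26 in Ctrl against NI at 2C and 17 in the difference of stage changes, where edgeR gave 0; DESeq2 gave 6 in Ctrl against NI at 2C and 2 in the difference of stage changes. With 1 library left out, these ran from 0 to 8 (Ctrl against NI at 2C) and 0 to 6 (difference), both highest without Ctrl 2C replicate 6; from 16 to 26 for the NI stage change (23 with all, 16 of 85 without NI 2C replicate 4, beside 46.5% of all genes); from 32 to 39 for the Ctrl stage change (38 with all); and stayed at 0 in the other comparisons within a stage. Summed levels ran from 2105 to 4243 CPM in NI 2C, 2939 to 3313 in Ctrl 2C, 2254 to 2430.15 in KRAB 2C, 2559 to 3119 in NI 8C, 3212 to 3904 in Ctrl 8C and 2448 to 2700.4 in VP64 8C. Size factors of DESeq2 moved the median stage change of all genes to -0.72 in NI and -0.70 in Ctrl, and that of the set to -1.25 and -1.03, with 2 rises and 28 falls in NI (16.2% and 35.1% of all genes) and 4 and 34 in Ctrl (20.2% and 41.5%). limma-voom gave 12 rises and 34 falls in Ctrl (30.3% and 42.7% of all genes). In NI, fitting only the groups compared moved the median of all genes to 0.09 and that of the set to -0.82 (3 rises and 17 falls of 71, beside 23.6% and 24.6% of all genes). Zfp771 (2.21, adjusted p = 0.0526) and Zfp935 in Ctrl (1.21, adjusted p = 0.0776) ceased to pass with the size factors. The causes were not tested.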
